A study of Mus musculus with 3 samples.

Results

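Alpha-beta T cells in the graft are mouse T cells whose antigen receptor pairs an alpha with a beta chain, and they were taken here from 1 library of cells from implanted human skin. A kept barcode counted as a member when it held at least 2 UMIs (unique molecular identifiers, each a counted RNA molecule) of Cd3d, Cd3e and Cd3g in sum, 0 UMIs of Trdc and Tcrg-C1, at most 5 UMIs of C1qa, C1qb and C1qc, and under 2% of its gene UMIs from S100a8 and S100a9. The rule was met by 141 of 2144 kept cells, or 6.58% (95% Clopper-Pearson interval 5.56 to 7.71). The members were thus chosen by these measured counts, so the levels of the genes of the rule describe the choice and are no finding, and every comparison between cells of the library is a description. Cells were read from their RNA alone, with no receptor sequence and no surface protein.

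The study asked how implanted human skin shapes the innate response and the healing of mouse tissue, with macrophages at its center. Human split-thickness skin was placed under the skin of wild-type C57BL6/J mice, and cells from 5 mice were pooled on day 14 into the hSTSG library. The other libraries, which served here only for counts of cells that meet the rule, held wild-type bone marrow cultures kept 7 days in GM-CSF, untreated (Co-Mac) or given vitamin D3 for 24 hours (VD-Mac). Each condition had 1 library, so no value has a replicate check.

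T cells of the alpha-beta kind recognise peptides held by MHC molecules, with CD4 as the coreceptor for class II and CD8 for class I. CD4 cells include helpers, which differ in the cytokines they make, and regulatory cells that carry the transcription factor Foxp3, while many CD8 cells can kill their targets. A graft from another species offers such cells foreign proteins, and implantation also wounds the tissue around it.

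The hSTSG library held 2644 barcodes with 24472168 gene UMIs. Human RNA was not counted, since the gene table lists mouse genes only. Under 300 genes were found in 306 barcodes, 100000 gene UMIs or more in 2 and 10% or more mitochondrial UMIs in 330, and some failed more than 1 of these filters. The kept cells had 22646544 gene UMIs and a median of 6637.5. The members carried 1019471 gene UMIs, with a median of 6111 (range 1763 to 31794) and a median of 2134 genes. Levels are given as CPM, the UMIs of a gene per 1000000 gene UMIs of the summed cells, and a gene was considered in a comparison when it reached 10 CPM in the higher group. All intervals are exact 95% intervals, Poisson for levels, Clopper-Pearson for shares of cells and conditional binomial for ratios, and they cover counting error only.

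The remaining kept cells were split by the same genes. A gamma-delta side of 118 cells met all of the rule but held a Trdc or Tcrg-C1 UMI, with 773542 UMIs and a median of 5706. C1q-high cells numbered 658 (median 12360 UMIs) and S100-high cells 393 (median 2386). These myeloid cells should lack T cell genes, so their shares give a background of free RNA. Mixed droplets are covered only in part, since cells that reached the Cd3 minimum of the rule were left out of both groups. The background from droplets mixed with a T cell may therefore be understated, and it was not measured. Shares were also taken after every cell was thinned to 2000 UMIs, which left out 1 member, 0 gamma-delta side cells, 32 C1q-high cells and 110 S100-high cells. Of the rest, 5 Cd3-positive cells over the C1q or S100 limit were set apart, and 829 cells fell in no group.

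Cells close to the limits of the rule were counted. Exactly 2 Cd3 UMIs were held by 6 members, and 4 of them had a UMI of Trac, Trbc1 or Trbc2. Just outside, 25 kept cells had exactly 1 Cd3 UMI and met the rest, 10 of them with such a UMI. Most cells of the gamma-delta side hold one too, so whether these are alpha-beta T cells cannot be told. The summed Cd3 count of members ran from 2 to 66 with a median of 8. Their C1q count reached at most 2, and S100a8 with S100a9 at most 1.10% of a member's UMIs. Exactly 1 Trdc or Tcrg-C1 UMI kept 7 cells on the gamma-delta side, 6 of them with an alpha or beta constant-region UMI. The myeloid limits left out 5 cells with 2 or more Cd3 UMIs, 1 with 87 C1q UMIs and 4 over the S100 limit. Those with 26, 15 and 8 UMIs of Trdc and Tcrg-C1 would have failed that limit too, so besides the C1q cell only 1, at 5.20% S100a8 and S100a9, was left out by a myeloid limit alone. The cultures had almost no such cells, with 5 of 7257 kept Co-Mac and 4 of 8825 kept VD-Mac barcodes. No member's barcode also occurred in a culture library, although 7 barcodes of the graft occurred in each.

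The label was checked against genes outside the rule. Trac (ENSMUSG00000076928), the constant region of the alpha chain, stood at 308 CPM (275 to 344) in members and 82.7 on the gamma-delta side. It had a UMI in 79.4% of members (45.7% after thinning) against 0.912% of C1q-high (0.319%) and 0.254% of S100-high cells (0.353%). Cd28 (ENSMUSG00000026012), the receptor for costimulation by B7 ligands, reached 504 CPM (462 to 549.7) and 80.9% of members (55.7% thinned), with 5.78% of C1q-high (0.958%) and 0.509% of S100-high cells (0.707%) as background. Cd5 (ENSMUSG00000024669), which dampens receptor signals, stood at 149 CPM (126 to 175) in 48.9% of members (23.6% thinned), 0.760% of C1q-high (0%) and 0.254% of S100-high cells (0.353%). Both genes set the members apart from the gamma-delta side, where Cd28 was at 41.4 CPM and Cd5 at 27.1. Cd4 (ENSMUSG00000023274) is given with the subsets, and Cd3e (ENSMUSG00000032093), part of the rule, was seen in 106 members at 304 CPM. The markers of the label were thus present in the members.

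Against all other kept cells, 1868 of 8848 genes considered were 2-fold or more higher and 2078 were lower. Cd3e, a gene of the rule, left out, the 4 other alpha-beta markers were all higher, with a median log2 ratio of 5.66 beside 0.19 over all genes considered. The 20 leading genes, with the genes of the rule left out, were almost all known T cell genes. Foxp3 was 163-fold higher, Tnfrsf4 (OX40, a costimulatory receptor) 85.9-fold (71.3 to 104) and the inhibitory receptor Ctla4 85.7-fold. Izumo1r, the folate receptor 4 of regulatory and anergic T cells, came to 191-fold and the receptor-linked kinase Lck to 78.9-fold. The genes of the label followed, Cd5 at 73.3-fold, Cd4 at 70.8-fold, Trac at 57.9-fold and Cd28 at 57.4-fold. Ermn, best known from myelinating glia, was less usual here, at 55.9 CPM in 19 members and 302-fold higher (112 to 1147). The rest of the 20 were Cd2, Cd6, Cd27, Gimap3, Ms4a4b, Sh2d1a, Tnfrsf18, Tnfsf8, Trat1 and Trbc2, between 38.7-fold for Tnfrsf18 and 89.8-fold for Trat1.

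**Figure D1:**
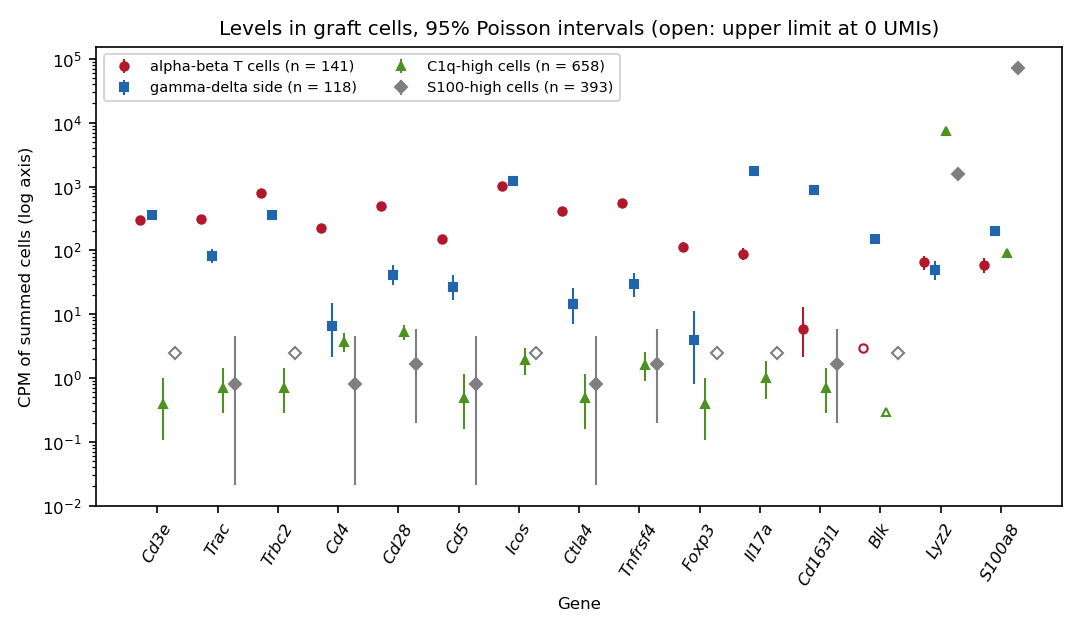
Summed levels in CPM (log axis) of 15 genes in the alpha-beta T cells, the gamma-delta side, C1q-high and S100-high cells of the hSTSG library, with 95% Poisson intervals and open symbols for upper limits at 0 UMIs. Cd28 stood at 504 CPM in the alpha-beta T cells and 41.4 on the gamma-delta side, and Cd163l1 at 5.89 and 887.

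Constant regions of the receptor were seen in most members, and a UMI of them was common on the gamma-delta side as well. A UMI of Trac, Trbc1 or Trbc2 was held by 97.2% of members and by 105 of 118 cells of the gamma-delta side (89.0%). Trbc2, a beta constant region, stood at 789 CPM and its near-identical copy Trbc1 at 458 CPM. Trbc2 alone was found in 60 members, Trbc1 alone in 9, both in 68 and none in 4, and since a T cell uses 1 beta constant region for its receptor, reads that could come from either copy or from free RNA may add to the cells with both. Trac was found in 112 members, all of which also held a beta constant-region UMI. Of the 7 receptor complex genes 2 were higher than on the gamma-delta side and 0 lower (median log2 0.25), namely Trac and Trbc2. Cd247, the zeta chain that carries the signal inward, stood at 165 CPM in members and 181 on the gamma-delta side. Variable segments were nearly out of reach of 3′ reads, with a Trav UMI in 5 members and a Trbv UMI in 13, and the segment shared most, Trbv2, in 3 members. No clone can be read from these counts.

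The members were next set against the gamma-delta side, the other T cells of the graft. Of 8043 genes considered, 733 (9.11%) were 2-fold or more higher in members and 781 (9.71%) lower, with a median log2 ratio of −0.07. Of the alpha-beta markers 4 of 5 were higher and 0 lower (median 2.41), with Cd3e as the one within 2-fold. All 10 gamma-delta markers considered were lower (median −5.66, or −5.00 with 0 counts set to 3 UMIs), a result that the rule fixes for Trdc and Tcrg-C1. With those left out 8 of 8 were lower (median −4.12). The list also holds the receptor genes Trdv4, Tcrg-V6, Tcrg-C2 and Tcrg-C4, which are not independent of the rule. The count is thus no separate support for the label. Blk, a kinase of IL-17-making gamma-delta cells, had 0 UMIs in members (limit 2.94 CPM) and 116 in 58 cells of the gamma-delta side, and Trdv4, Tcrg-V6 and Sox13 had 0 UMIs as well. Cd163l1 had 6 UMIs in members and was 151-fold lower (68.9 to 412). Tcrg-C2 and Tcrg-C4, gamma constant regions outside the rule, were left in 6 and 7 members, 5 and 6 of them without a Cd4 or Cd8 UMI. Rearranged gamma genes are also transcribed in some alpha-beta T cells, so these few cells cannot be told apart from gamma-delta cells that escaped the rule.

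The genes that led the other way had varied roles. Lgals7, galectin 7, was 84.6-fold higher (23.1 to 703), with 43.5% of its member UMIs in 1 of 22 cells. St8sia1, a sialyltransferase that makes the ganglioside GD3, had 52 UMIs against 0, at least 13.2-fold. Ifi27l2a, induced by interferon, was 40.0-fold higher (26.5 to 63.3), Cd4 34.4-fold (14.5 to 107), Ctla4 29.2-fold (16.2 to 59.0), Foxp3 29.1-fold (9.71 to 143) and Tnfrsf4 18.7-fold (12.3 to 29.8). Trat1, which stabilises the receptor complex, was 54.6-fold higher (9.50 to 2187), and Fam169b (61.5-fold, 10.7 to 2457) and the noncoding Gm8369 (60.7-fold, 10.6 to 2427) rested, like Trat1, on 1 UMI on the gamma-delta side. Lower in members were genes of the gamma-delta side such as Abi3bp (119-fold, 20.8 to 4736, 1 UMI in members), St3gal3 (32.3-fold, 8.47 to 274), Ptgs2 (32.0-fold, or 57.6-fold without the members that held RNA of another cell type), Npnt (25.5-fold), Pde5a (22.4-fold, 7.25 to 112), Il17a (20.1-fold), Edil3 (20.1-fold) and Bcl2a1a (18.2-fold).

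Signalling downstream of the receptor was fully represented. All 13 listed signalling genes had UMIs in members, 6 were 2-fold or more higher than on the gamma-delta side and 0 lower (median log2 0.94). The split was within the pathway. Lck, the kinase that docks on CD4 and CD8, stood at 142 CPM against 10.3, and the adhesion and signalling receptors Cd2 (345 against 59.5) and Cd6 (173 against 41.4) moved with it. Further along, the kinase Zap70 (113 against 177) and the scaffold Lat (199 against 339) stayed within 2-fold. Lcp2 is no T cell mark in this tissue, with a UMI in 48.8% of C1q-high and 61.1% of S100-high cells.

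Costimulatory receptors were higher in members than on the gamma-delta side for 6 of 9 genes (median log2 3.11), with none lower. Icos, a CD28 relative of activated cells, was the most abundant at 1006 CPM, within 2-fold of the 1210.0 on the gamma-delta side. Tnfrsf9 (4-1BB) was within 2-fold too (626 and 653). Tnfrsf4 stood at 556 against 29.7 CPM, Tnfrsf18 (GITR) at 276 against 31.0 and Cd27 at 190.3 against 23.3. Cd40lg, by which helpers license antigen-presenting cells, had 25 UMIs in 15 members and 0 on the gamma-delta side. Among 6 inhibitory receptors considered 3 were higher and 1 lower (median 0.64). Ctla4 led with 416 CPM and Lag3 followed with 126 against 10.3, whereas Pdcd1 (PD-1) was the lower gene at 73.6 against 350.3. Tigit had only 10 UMIs, and the exhaustion factor Tox stood at 42.2 CPM. Entpd1 (CD39), at 27.5 CPM in members, was higher in C1q-high (91.0) and S100-high cells (726). Genes of follicular helper cells were mixed. Of the 4 considered 2 were higher, Bcl6 (61.8 against 14.2) and Sh2d1a (60.8 against 9.05), and 1 lower (median 0.89), while Cxcr5 had 4 UMIs, Il21 1 and Ascl2 0 (limit 2.94 CPM).

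CD4 cells made up most of the members with a coreceptor UMI. A Cd4 UMI and none of Cd8a or Cd8b1 was found in 81 members (57.4%, 48.8 to 65.7), a Cd8 UMI and none of Cd4 in 15 (10.6%, 6.08 to 16.9), both in 0 (limit 2.13%) and neither in 45 (31.9%). The level of Cd4 in members was 223 CPM (195 to 254). Its RNA is sparse, and after thinning 27.9% of members had a UMI, so the share is a lower bound. The background was low at 2.28% of C1q-high (0.319% thinned) and 0.254% of S100-high cells (0.353%), and 1.69% of the gamma-delta side. Of the Cd8 cells 9 held both chains, 3 only Cd8a and 3 only Cd8b1, and Cd8a had a UMI in 0 C1q-high and 1 S100-high cell. Members with neither were shallower, with a median of 5101 UMIs against 6273 in Cd4 and 8531 in Cd8 cells, so a coreceptor that was missed cannot be told apart from one that was absent.

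Foxp3, the factor that defines regulatory T cells, had a UMI in 22 members (15.6%, 10.0 to 22.7; 10.7% thinned). Of these 16 were Cd4 cells, 6 had no coreceptor UMI and 0 were Cd8 cells. Only 3 of the cells had a lone Foxp3 UMI, with a median of 4.5 UMIs and a highest count of 13. Foxp3 was found in 1 cell of the gamma-delta side (0.847%), 4 C1q-high (0.608%, 0% thinned) and 0 S100-high cells (limit 0.763%), far under the share of members. Ikzf2 (Helios), another factor of regulatory cells, had a UMI in 19 of the 22 (86.4%) and in 25 of 119 other members (21.0%). Il2ra (CD25), the high-affinity IL-2 receptor chain, was present in 20 of the 22 and in 58 of all 141 members. C1q-high cells had Ikzf2 in 7.29% and Il2ra in 2.58%. The regulatory list stood above the gamma-delta side as well, with 11 of 16 genes higher and 2 lower (median log2 2.63). Penk, an enkephalin gene of regulatory cells in tissue, had 69 UMIs in 7 members and 0 there.

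The 16 Foxp3-positive Cd4 cells were compared with the 65 Foxp3-negative ones. Of 8388 genes 1774 (21.1%) were higher and 1431 (17.1%) lower, many from few counts, as 10 CPM stands for 1.22 UMIs in the positive cells. Against that background the regulatory list had 13 of 17 genes higher and 0 lower, or 12 of 16 without Foxp3, which divides the groups (median log2 1.86, and 1.83 without it, beside 0.04 over all genes). Ikzf2 stood at 2337 against 42.4 CPM, Il2ra at 1934 against 512 and Ctla4 at 1325 against 365. The TNF receptors of activated regulatory cells were all higher, Tnfrsf4 at 1859.9 against 533, Tnfrsf9 at 2247 against 472 and Tnfrsf18 at 815 against 256. Of genes known from regulatory cells in tissue, Klrg1 stood at 198 against 6.05, the IL-33 receptor Il1rl1 at 1251 against 375, and Itgae (CD103, which binds E-cadherin) at 387 against 4.04, 95.9-fold (25.1 to 815). The tissue residence list as a whole did not move one way, with 3 of 10 genes higher and 2 lower (median −0.11), and its Cxcr6 was lower (98.8 against 470.1). Of the same regulatory list, Lrrc32, which binds latent TGF-beta, stood at 222 against 10.1 CPM and Itgb8 had 9 UMIs against 0, at least 12.2-fold (6 UMIs without the cells that held RNA of another cell type). Gzmb, the protease granzyme B, stood at 584 against 40.4 CPM and the factor Maf at 1745 against 567, whereas the Il10 levels (139.9 and 111) rested mostly on 1 cell each, with 82.4% and 70.9% of the UMIs.

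The genes lowest in the Foxp3-positive cells had 0 UMIs there, which gives bounds only. Tcf7 (TCF-1), a factor of memory and naive cells, had 104 UMIs in the negative cells (at least 8.50-fold), and Bach2, of the same program, had 37 (at least 3.02-fold). Tnfsf11 (RANKL), a cytokine of helper cells, had 104 UMIs in 20 cells (at least 8.50-fold) and St8sia1 42 (at least 3.43-fold). Themis, needed for receptor signalling in development, had 33 (at least 2.70-fold), Slc17a6, a glutamate transporter, 68 in 7 cells (at least 5.56-fold), and Il17f 46, most of them in 1 cell (76.1%). Rundc3b, Pxdc1 and Chrac1 were the other genes named by the rule, at least 3.02-fold, 2.78-fold and 2.70-fold lower. Without the cells that held RNA of another cell type 13 positive cells were left. The bounds then fell to 2.22-fold for Rundc3b and for Bach2, 1.85-fold for Chrac1 and 5.43-fold for Tnfsf11. Pxdc1, with 14 UMIs against 0, gave no fold.

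Part of the positive cells' leading genes came from 1 droplet. Fabp4 (194-fold, 74.4 to 718) and Aqp1 (208-fold, 35.7 to 8376) had 98.4% and 98.0% of their UMIs in a cell that also carried endothelial RNA, and fell to 4.05-fold and 5.41-fold without the cells that held RNA of another cell type. Hes1 (at least 17.7-fold) and Ramp2 (at least 13.6-fold) had 92.3% and 90% of their UMIs in 1 cell. By contrast Itgae kept 100.0-fold without these cells, and Dgat2, an enzyme of triglyceride synthesis that stood at 144 CPM in S100-high cells, changed from at least 19.0-fold to at least 21.6-fold. Itgb8 held at least 10.8-fold, Tmem158 at least 18.0-fold (13.6 with them) and Kitl at least 7.21-fold (12.2 with them), while Ctbp2 fell from 7 UMIs in 2 cells (at least 9.52-fold) to 3, which leaves no fold.

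**Figure D2:**
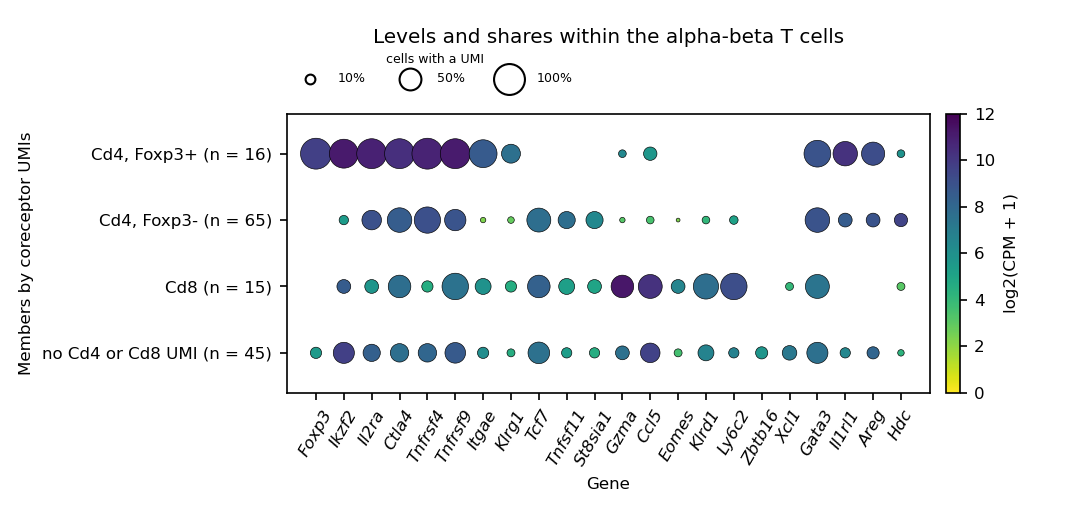
Levels as log2(CPM + 1) (color) and shares of cells with a UMI (circle area) of 22 genes in 4 subsets of the alpha-beta T cells, by UMIs of Cd4, Foxp3 and Cd8. Ikzf2 stood at 2337 CPM in Foxp3-positive Cd4 cells and 42.4 in Foxp3-negative ones, and Gzma at 2489.9 CPM in Cd8 cells.

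The Cd8 cells carried a cytotoxic profile. Against the Cd4 cells 991 of 7918 genes (12.5%) were higher and 1864 (23.5%) lower, with 10 CPM equal to 1.31 UMIs in the 15 Cd8 cells. Of 14 CD8 and cytotoxic genes 12 were higher and 0 lower (median log2 3.54, or 3.90 with 0 counts set to 3 UMIs, beside −0.17 over all genes). Cd8a and Cd8b1 define the group, and without them 10 of 12 were higher (median 2.95). Gzma (granzyme A) was 109.8-fold higher (64.5 to 203) at 2489.9 CPM, from 8 of the cells and with 41.0% of the UMIs in 1 of them. The chemokine Ccl5 was 70.1-fold higher (38.1 to 143) and found in 9 cells (60%, 53.3% thinned), against 14.4% (5.75%) of C1q-high cells, which hold it at 157 CPM. Further higher genes were Ly6c2, a mark of memory CD8 cells that S100-high cells hold as well (306 CPM), 20.5-fold and the NK receptor chain Klrd1 15.9-fold (7.01 to 40.4). Nkg7, which aids the release of granules, stood at 609 against 169 CPM and Ctsw at 244 against 51.9. Perforin was scarce, with 3 UMIs of Prf1. Over all members the same list had 6 of 13 genes higher than the gamma-delta side and 2 lower (median 0.92), and Gzma had a UMI in 1.52% of C1q-high cells (0.479% thinned) against 53.3% of Cd8 cells (40%). Eomes, a factor of cytotoxic cells, was 28.2-fold higher (6.28 to 259) from 3 cells, Cd7 29.8-fold (8.76 to 157), Lamb3 18.8-fold (5.07 to 104) and Bend4 94.0-fold (15.0 to 3896, or at least 27.3-fold, with 0 UMIs in Cd4 cells, without the mixed cells described below), while Adgrg5 and Klre1 had 0 UMIs in Cd4 cells (at least 17.2-fold and 15.7-fold).

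Genes low in Cd8 cells included those of regulatory and type 2 cells, and all 10 named by the rule had 0 UMIs there. Il1rl1 had 338 UMIs in Cd4 cells (at least 24.0-fold), Areg (amphiregulin, a growth factor for epithelium) 317 (at least 22.5-fold), the decoy receptor Il1r2 118 (at least 8.37-fold) and Foxp3 103 (at least 7.31-fold). Cd74, the class II invariant chain, had 641 UMIs in 28 Cd4 cells (at least 45.5-fold), 35.3% of them in 1 cell. Without the Cd4 cells that held RNA of another cell type 51 UMIs were left (at least 4.16-fold), so most of the Cd74 RNA lay in those cells. Myeloid cells of the graft hold several of these genes, with Cd74 at 3949 and Zeb2 at 749.9 CPM in C1q-high cells and Il1r2 at 1016 CPM in S100-high cells. Zeb2, Socs2, Cpd, Serpinb1a and Tmem176a were at least 7.87-fold, 6.88-fold, 5.18-fold, 4.75-fold and 4.54-fold lower. Of the regulatory list 0 of 17 genes were higher and 14 lower (median log2 −3.87, or −1.59 with 0 counts set to 3 UMIs), and of the helper lineage factors 0 of 11 were higher and 9 lower (median −1.54).

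The Cd8 cells also differed in mitochondrial RNA, so the coreceptor and the mitochondrial share are not separate in the set as a whole. At least 5% mitochondrial UMIs were found in 11 of 15 Cd8 cells, 14 of 81 Cd4 cells and 40 of all members, and under a limit of 5% the Cd8 share fell to 3.96%. Within the cells at 5% or more, a comparison added after the data were seen, Gzma had 190 UMIs in 11 Cd8 cells and 0 in 14 Cd4 cells (at least 57.5-fold). Ccl5 had 85 against 0, and of the cytotoxic list without Cd8a and Cd8b1 10 of 12 genes were higher and 0 lower, beside 17.9% higher and 31.4% lower over all genes. The regulatory list was less one-sided there than over all Cd8 and Cd4 cells, with 3 of 14 genes higher and 9 lower. Foxp3 had 0 UMIs in both groups, and the higher genes were Ikzf2 with 49 UMIs against 0 (at least 14.8-fold), within 2-fold over all Cd8 and Cd4 cells, Nt5e with 12 against 5 and Klrg1 with 3 against 1. The median mitochondrial share was 5.93% in these Cd8 cells and 5.87% in these Cd4 cells. Over all Cd8 and Cd4 cells the dissociation and immediate early list differed as well, with 0 of 12 genes higher and 8 lower (median log2 −1.83, or −1.59 with 0 counts set to 3 UMIs), 2429 against 5127 CPM in sum. Markers of neutrophils, B lineage and endothelium were lower in Cd8 cells for 5 of 5, 3 of 3 and 5 of 5 genes (medians −2.19, −3.63 and −3.85, or −1.91, −1.09 and 0.36 with 0 counts set to 3 UMIs). The part of RNA quality and of other cell types in the Cd8 comparison was not tested further.

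Single genes known from innate-like cells were seen in some members with neither coreceptor, and they were not tested as a set. No fixed list groups these genes, although some, such as Ccl5, Xcl1 and Ikzf2, belong to other fixed lists. Apart from genes of those lists they were picked after their values were seen. The group shared Ccl5 with the Cd8 cells, at 782 CPM against 1249 in Cd8, 17.8 in Cd4 and 157 in C1q-high cells, and the kinase Txk at 210.4 against 145 and 9.72. Xcl1, a chemokine of innate-like and cytotoxic lymphocytes that draws dendritic cells, was found in 11 members, 10 of them in this group and 1 a Cd8 cell, and in 1 C1q-high and 0 S100-high cells. The group also held NK receptors of the Ly49 family, with Klra7 in 7 of 8 positive members and Klra9 in 5 of 5, while Ncr1, which defines NK cells, had 0 UMIs in all members (limit 2.94 CPM) and Klrb1c, the common mark of natural killer T cells, 3 UMIs. Zbtb16 (PLZF), the factor of innate-like T cells, had a UMI in 7 members, all in this group, and in 47 cells of the gamma-delta side, or 4.96% of members against 1.67% of C1q-high cells (11). Ikzf2 was high in the group too, at 841 CPM with Foxp3 in only 6 cells. Gamma-delta markers were found in 12 of the 45 cells, at 229 CPM in sum and led by Il17a, against 92.4 in Cd4 and 38.1 in Cd8 cells. These sums rest on single cells, as 1 held 40 of the 62 UMIs in this group and 1 held 49 of the 57 in Cd4 cells. Of the members with Tcrg-C2 5 of 6 and with Tcrg-C4 6 of 7 lay in this group. Natural killer T cells and gamma-delta cells in which Trdc and Tcrg-C1 were missed could both bring in such genes, and as no receptor can be read here they cannot be told apart.

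The lineage factors of helper cells were compared next. Gata3, the factor of type 2 cells, stood at 369.8 CPM (333 to 409) against 124 on the gamma-delta side and was highest in Cd4 cells (489). It had a UMI in 58.9% of members (35.7% thinned), 1.52% of C1q-high (0.319%) and 0% of S100-high cells. Tbx21 (T-bet), which drives type 1 cells, stood at 35.3 CPM in 25 members against 15.5 on the gamma-delta side. Rora (820.0 against 1344), Maf (589.5 against 645) and Runx3 (295 against 308) were shared by both. Of the 12 lineage factors considered 4 were higher and 1 lower than on the gamma-delta side (median log2 0.10). The higher ones were Gata3, Tbx21, Bcl6 (61.8 against 14.2) and the dioxin receptor Ahr (53.0 against 14.2).

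The type 2 cytokines came from a few cells. A UMI of Il4, Il5 or Il13 was found in 8 members, Il4 in 4 (31 UMIs), Il5 in 3 (32) and Il13 in 5 (35). The share of members with Il4 (2.84%) was close to that of C1q-high cells (14 cells, 2.13%), so it alone marks no expression. Of the Il4 UMIs of C1q-high cells 93.6% lay in 1 cell, while the members with Il4 held 15, 13, 2 and 1, so the lower counts are near the background. Il5 and Il13 were found in 2.13% and 3.55% of members against 0.152% and 0.456% of C1q-high cells. All 3 members with Il5 also held Il13, 1 held Il4 with Il13 and 0 held Il4 with Il5. Each of the 8 had Cd4, Gata3, Il1rl1 and an alpha or beta constant-region UMI, and 2 had Foxp3. Of the 8, 0 carried 20 or more UMIs of the macrophage, neutrophil, dendritic cell, B lineage, fibroblast or endothelial markers counted below. Mast cell and basophil markers were not part of that count. Il4, Il5 and Il13 sit in 1 locus that GATA3 opens in type 2 helper cells.

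Hdc, which makes histamine and is known from mast cells, basophils and neutrophils, was high in some of the same cells. It had 373 UMIs in 4 of the 8 cells, 94.4% of all Hdc UMIs in members, and a level of 4213 CPM (3797 to 4663) against 23.6 (14.8 to 35.8) in the other 133 members. The S100-high cells hold Hdc as well, at 1923 CPM in 91.3% of cells, so free RNA of it must be reckoned with. In the 4 members the counts were 138, 96, 75 and 64 UMIs of Hdc among 13029, 19942, 11725 and 14136 gene UMIs. An S100-high cell held at most 32, but from a median of 2386 gene UMIs, so these counts are not on a par. S100a8 had at most 2 UMIs in the 4 members. The other 12 members with Hdc held 22 UMIs in all, which cannot be told apart from free RNA. Of the mast cell and basophil list as a whole 3 of 8 genes had UMIs, 393 CPM in sum, and Hdc alone made 387 of it. Cpa3, Fcer1a, Ms4a2, Gata2 and Mcpt4 had 0 UMIs in all members (limit 2.94 CPM for each), and Mcpt8 with these genes gave 1 UMI in the type 2 cells. Calca, a neuropeptide gene of activated type 2 lymphocytes, had 73.8% of its member UMIs in these cells, Il10 76.5% and Areg 53.0%. Few cells carried these sums, as 1 cell held 93 of the 121 Calca and 39 of the 62 Il10 UMIs, and 2 cells held 100 and 83 of the 209 Areg UMIs. Il10 and Areg are not confined to T cells in this tissue, with UMIs in 15.0% and 11.2% of C1q-high cells. Pparg, a factor of type 2 cells chosen after its values were seen, was found in 4 of the 8 and 1 of the other 133, although myeloid cells hold it too (8.36% of C1q-high cells). The 8 cells were deeper than the others, with medians of 10154 and 5875 UMIs, so shares of cells are not on a par, but levels are. Innate type 2 lymphocytes (ILC2) share these genes, and 6 of 9 genes of their list were higher in members than on the gamma-delta side and 0 lower (median log2 1.69), with Il17rb at 0 UMIs. Such cells lack a receptor, although some transcribe constant regions, and receptor protein was not measured.

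**Figure D3:**
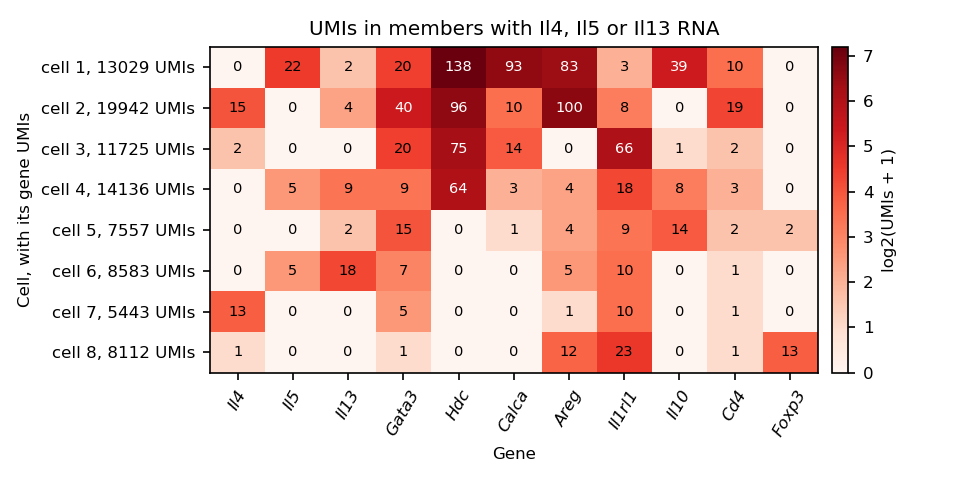
UMIs of 11 genes (numbers, and color as log2(UMIs + 1)) in each of the 8 members with Il4, Il5 or Il13 UMIs, with the gene UMIs of each cell. Hdc was present in 4 cells, all with Gata3, Il1rl1 and Cd4.

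The reference promoters of these cytokine genes were read for the motif GATA on both strands (TATC on the other). Each 300-base window, from 250 bases before to 50 after the RefSeq start on GRCm38.p6, held 1 match, in capitals. Of 32851 mouse promoters 57.9% held at least 1, so the motif does not set these genes apart. The windows, shown because the genes lie in 1 locus, are chr11:53618616-53618915 for Il4 and chr11:53634653-53634952 for Il13, both on the minus strand, and chr11:53720544-53720843 on the plus strand for Il5.

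Il4: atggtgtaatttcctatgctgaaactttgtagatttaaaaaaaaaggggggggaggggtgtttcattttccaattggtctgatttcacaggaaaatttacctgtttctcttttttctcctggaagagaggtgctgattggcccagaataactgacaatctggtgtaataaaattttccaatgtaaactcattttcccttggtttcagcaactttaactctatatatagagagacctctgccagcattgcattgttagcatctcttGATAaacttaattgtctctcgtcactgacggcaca

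Il13: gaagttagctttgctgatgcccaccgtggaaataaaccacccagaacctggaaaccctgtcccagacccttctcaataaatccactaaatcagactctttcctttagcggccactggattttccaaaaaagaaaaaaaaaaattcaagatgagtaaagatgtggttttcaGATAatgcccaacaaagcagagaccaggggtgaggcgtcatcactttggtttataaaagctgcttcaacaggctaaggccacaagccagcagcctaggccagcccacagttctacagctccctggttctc

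Il5: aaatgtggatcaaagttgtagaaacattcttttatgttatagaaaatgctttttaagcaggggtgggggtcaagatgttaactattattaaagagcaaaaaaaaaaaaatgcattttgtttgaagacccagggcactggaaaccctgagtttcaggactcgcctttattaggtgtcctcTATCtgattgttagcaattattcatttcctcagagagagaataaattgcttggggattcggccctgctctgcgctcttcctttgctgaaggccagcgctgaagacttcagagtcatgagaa

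IL-17 belonged mostly to the other T cells of the graft. Il17a stood at 88.3 CPM in members (71.0 to 109) and 1778 on the gamma-delta side, where 53 of 118 cells (44.9%) had a UMI against 4 members. With Il17f (86.3 and 571 CPM) 11 members held a UMI of either, 9 of them Cd4 cells. C1q-high cells had Il17a in 1.52% and Il17f in 0.152% of cells as a background. Only 2 members had both genes, with 48 and 39 Il17a UMIs and 35 and 41 of Il17f. Neither held a Cd163l1, Blk or gamma constant-region UMI, but each held 1 UMI of Il23r, which is on the gamma-delta list. The member with 39 Il17a UMIs had 0 UMIs of Trac and Cd4 and 1 each of Trbc1 and Trbc2. Whether it is an alpha-beta T cell cannot be told. The other members with IL-17 RNA held 1 to 5 UMIs each, and whether these came from free RNA was not tested. Il22 had 12 UMIs in 5 members and 105 CPM on the gamma-delta side. Ifng, the type 1 cytokine, was found in 13 members at 33.4 CPM (23.1 to 46.6), above 7.76 on the gamma-delta side and with 0 UMIs in C1q-high and S100-high cells. Cells with Ifng, with IL-17 RNA and with type 2 cytokines did not overlap, although with so few cells of each kind little overlap could be seen. Il10 was found in 10 members, 5 with Foxp3 and 4 with a type 2 cytokine.

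The remaining cytokines split the members by subset. Of 19 cytokine genes considered 9 were higher and 6 lower than on the gamma-delta side (median log2 −0.45), and the Cd8 cells had 2 of 19 higher and 13 lower than the Cd4 cells (median −3.80, or −1.14 with 0 counts set to 3 UMIs). Il2 and Il9 had 0 UMIs in members (limit 2.94 CPM for each). Tnfsf11 stood at 118 CPM against 7.76 on the gamma-delta side, mostly from Foxp3-negative Cd4 cells (209.8). Areg stood at 386 CPM, with 601 in regulatory and 492 in other Cd4 cells and 593 on the gamma-delta side. The level of the other Cd4 cells rested mostly on 2 cells, with 100 and 83 of the 244 UMIs. Ltb (372 against 1089.8) and Tnf (38.3 against 172) were lower in members, and Tnf was higher still in S100-high cells, at 1285 CPM. Csf1, a growth factor for macrophages, stood at 45.1 CPM against 6.46 and was highest in S100-high cells (299), and Csf2 had 6 UMIs. Of the 8 repair and growth factor genes 4 were higher than on the gamma-delta side and 2 lower (median log2 1.04), and Tgfb1 was at 373 CPM against 526. Of 13 ligands that act on T cells, such as chemokines, 4 were higher and 1 lower (median 0.62), and Ccl5 was the most abundant of them at 379.6 CPM.

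Cytokine receptors were compared by their RNA, and no response of the cells to a cytokine was measured. Il2rb, the shared chain for IL-2 and IL-15, was seen in 137 members at 1002 CPM (1754 on the gamma-delta side), and Il7r stood at 561 against 705. Il2ra was lower in members as a whole (573 against 1385) and reached 1934 only in the Foxp3-positive Cd4 cells. Ifngr1 (729.8 against 277), Il12rb2 of the type 1 path (55.9 against 7.76) and Il1rl1 (354 against 31.0) were higher, and Il23r (5 UMIs) and Il1r1 (20.6 against 97.0), which drive IL-17, were lower. Il4ra (277 CPM) and Il21r (264) were within 2-fold. In all 4 of 16 receptors were higher and 4 lower (median log2 0.05).

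Most recirculation genes considered were higher in members than on the gamma-delta side, and a part of the residence genes were lower. Of the naive and recirculating list 6 of 8 genes were higher and 0 lower (median log2 1.74). Over all genes 9.11% were higher and 9.71% lower. Ccr7, which leads cells to lymph nodes, stood at 333 against 106 CPM, the exit receptor S1pr1 at 150.1 against 41.4, its driver Klf2 at 113 against 24.6 and Tcf7 at 194 against 50.4. The activation marks Icos and Cd44 (314 CPM) were common. Of the residence list 0 of 10 were higher and 4 lower (median −0.50), with Cd69 at 269 against 959, Cxcr6 at 351 against 1607, Cd44 at 314 against 778 and Itgae at 74.5 against 159. Zfp683 (Hobit), a factor of resident cells, had 0 UMIs in either (limit 2.94 CPM in members). Chemokine receptors split, with 4 of 9 higher and 2 lower (median −0.07). Cxcr3, of type 1 cells, stood at 42.2 against 7.76 and the skin-homing Ccr4 at 30.4 against 14.2, and Ccr2 (224 against 407), of cells that enter inflamed tissue, was within 2-fold. Ccr8 had 10 UMIs and the gut receptor Ccr9 had 0 (limit 2.94 CPM).

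Of 18 interferon response genes 8 were higher in members than on the gamma-delta side, 0 lower and 10 within 2-fold (median log2 0.95). The share over all genes was 9.11% higher and 9.71% lower, and a response to interferon was not measured. Ifi27l2a was the most abundant of these genes, at 1189 CPM (1123 to 1258) against 29.7. It was found in 56.0% of members (47.1% thinned), and as 59.1% of C1q-high (36.6%) and 16.8% of S100-high cells (12.4%) held it too, it is no T cell gene. The gamma-delta side of the same library had 10.2% (2.54%), and the part of free RNA was not tested. Its level was 1696 CPM in Cd4 and 129 in Cd8 cells. The GTPase Gbp7 was higher as well (99.1 against 20.7), and its relative Igtp was within 2-fold (238 against 141).

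Of 10 genes of recent receptor engagement 1 was higher than on the gamma-delta side and 1 lower (median log2 −0.34). Over all genes 9.11% were higher and 9.71% lower. The list summed to 2129 CPM in members and 2936 on the gamma-delta side, and a difference was not tested. Nr4a3, induced by the receptor, stood at 411 CPM against 449 and Nr4a1 at 139 against 231. Nfatc1 was the higher gene (164 against 62.1) and Cd69 the lower. Tissue dissociation induces immediate early and heat shock genes of the same kind, and of 12 such genes 0 were higher and 4 lower (median −0.63). Hspa1b was lower in members, at 309 against 1502 CPM, and Fos at 67.7 against 310.3. RNA of dividing cells was present, with Mki67 or Top2a in 25 members (17.7%, 11.8 to 25.1; 8.57% thinned). The shares were 15.3% (5.93%) on the gamma-delta side, 16.9% (4.47%) in C1q-high and 3.05% (2.47%) in S100-high cells. Members and the gamma-delta side did not differ beyond their intervals. The unthinned share of S100-high cells (1.59 to 5.27) lay below both. After thinning its interval (1.00 to 5.03) overlapped that of members (4.51 to 14.5). Of the cell cycle list 2 of 14 genes were higher and 0 lower (median 0.51).

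RNA of other cell types was present at low levels. The 12 macrophage markers summed to 664 CPM in members, led by Spp1 (207), and all had UMIs, as had the 10 neutrophil markers (573 CPM, led by Cxcl2 with 277). Both abound in the myeloid cells of the graft, where Spp1 reached 8169.5 CPM. Dendritic cell markers had UMIs for 7 of 10 genes (689.6 CPM, led by Ccr7 and with Flt3, Clec9a and Siglech at 0), B lineage markers for 7 of 11 (136 CPM, led by Ighm, with Ms4a1, Mzb1 and Iglc1 among those at 0) and NK markers for 7 of 10 (276 CPM, led by Fcer1g). Fibroblast markers had 6 of 8 (153 CPM, led by Fn1, with Pdgfra and Pdgfrb at 0), endothelial markers 7 of 7 (138 CPM, led by Pecam1) and erythrocyte markers 4 of 5 (43.2 CPM), while keratinocyte markers had 1 UMI. Set against the gamma-delta side, 1 of 9 macrophage genes was higher and 1 lower (median log2 0.30), and for neutrophils 1 of 6 was higher and 4 lower (median −1.36). Dendritic cell genes had 2 of 4 higher and 1 lower (median 1.15), B lineage genes 2 of 4 higher and 1 lower (median 0.96), and NK genes 3 of 6 higher and 0 lower (median 0.99). Of fibroblast genes 1 of 5 was higher (median −0.15), of endothelial genes 2 of 3 (median 3.56, or 1.48 with 0 counts set to 3 UMIs) and of mast cell and basophil genes 1 of 1, Hdc (log2 2.01), with none lower. Of 2 erythrocyte genes 0 were higher and 1 lower (median −0.72). No keratinocyte gene was abundant enough to be considered. Their part in the comparisons was not tested, apart from the removal of mixed cells.

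Doublets were kept, and 8 members held 20 or more UMIs of the markers of macrophages, neutrophils, dendritic cells, B lineage, fibroblasts or endothelium, with 4 genes that T cells also make left out (Ccr7, Il1r2, Pecam1 and Cxcl2). Their median was 12660 UMIs against 5875 in the others. They comprised 6 Cd4 cells, 3 of them Foxp3-positive, 2 without a coreceptor and 0 Cd8 cells, and held 98.0% of the members' 51 endothelial and 94.5% of their 364 dendritic cell UMIs. These sums lack Pecam1 (90 UMIs in members) and Ccr7 (339), which lead the whole lists. Without the mixed cells Gzma was 334-fold (129 to 1235) and Ccl5 134-fold (56.3 to 419) higher in Cd8 than in Cd4 cells. Endothelial markers were higher in the Foxp3-positive than in the other Cd4 cells for 6 of 6 genes (median log2 5.86, or 3.67 with 0 counts set to 3 UMIs), 650.1 against 94.8 CPM in sum. B lineage markers were higher for 2 of 3 genes (387 against 48.4 CPM) and neutrophil markers for 4 of 7, with 1 lower (median 1.18). With those cells left out Ighm stood at 203 against 22.1 CPM. Scrublet scored each cell against simulated doublets, and removal of the 45 highest scores, the number that the expected rate gives, took 6 members, 5 of them among the mixed ones.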

How the data were processed

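The deposited files hold raw counts of UMIs per gene and barcode, made by the authors with Cell Ranger 3.1.0 from 10x 3′ libraries. The submitters' notes name mm9 and the methods GRCh38, but all gene identifiers are mouse ones, and 31011 of 31053 were found in GENCODE vM21. The counts carry no coordinates. Promoters came from the RefSeq table for GRCm38.p6, where 3 of 3 genes matched. The members, the 32 gene lists and the comparisons were chosen with earlier results of these data known.

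Barcodes with at least 300 genes, under 100000 gene UMIs and under 10% mitochondrial UMIs were kept. Cells of a group were summed to CPM and compared by ratio within the hSTSG library, for genes at 10 CPM or more in the higher group. A gene was called past 2-fold, with no test, since each condition had 1 library. List medians used 1 CPM added to both groups or, where said, 0 counts set to 3 UMIs and nothing added. A gene with 0 UMIs in 1 group gives a bound against 3 UMIs. Named genes were the 10 per direction, or 20 for members against all other kept cells, with the largest ratio after 1 CPM was added, at 50 CPM or more in the higher group and a UMI in at least 10% of its cells. Genes that defined a group, immunoglobulin genes and receptor V, D and J segments were left out of that rule, and genes of the lists could be named too. Thinning drew UMIs without replacement.

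Alternatives changed the limits of the rule, the filters, the minimum level, the UMIs that make a cell positive, the depth, the mean over cells in place of the sum, and doublets. Scrublet, run in scanpy 1.11.5, used an expected rate of 2.12%, and 10 cells were called at its automatic threshold. Other tools were Python 3.11.15, numpy 2.4.6, scipy 1.17.1, pandas 2.3.3, anndata 0.12.19 and matplotlib 3.10.9. Calculations were tested on simulated data. Hashtag antibodies were not used as groups, and a list of sex-linked genes was set and not analysed here. The values of some list genes are not reported here.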

Additional observations from a re-analysis of the deposited data

Results flagged for a closer look

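Counts appeared in data that the comparisons do not use. The graft library also counted 20 hashtag antibodies, oligo-tagged labels for cells from different sources, and the median alpha-beta T cell held 140 hashtag UMIs, above the 3 that a count of 0 allows. Of the 20 hashtags 4 had at least 10000 UMIs in the library, and the other 16 held 1464 together. All 4 are named as human hashtags. Their medians were 33, 15, 48 and 35 UMIs in members and 34, 17, 53 and 35 in barcodes that were not kept. The hashtag counts thus did not set the members apart from discarded barcodes. The leading hashtag of a member had a median of 37.8% of its hashtag UMIs, and only 2 members had a leading hashtag over 80%, so most members could not be assigned to 1 hashtag. The labels name 5 mice and no key from hashtag to mouse, and differences between mice were not tested.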

How the results depend on the processing

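Of 89 alternatives for 8 results, 75 left the value within its counting interval or, for a count of genes or cells, within 1.5 times. The share of kept cells that met the rule was 6.58% and became 7.74% with a minimum of 1 Cd3 UMI. The share of members with a Cd4 UMI was 57.4%. It became 66.3% under 5% mitochondrial UMIs, 37.6% where 2 UMIs made a cell positive, 27.9% after thinning to 2000 UMIs and 13.5% after thinning to 1000. The Cd8 share of 10.6% became 3.96% under 5% mitochondrial UMIs, 6.43% at 2000 UMIs and 3.55% at 1000 UMIs. The Foxp3 share of 15.6% became 7.09% at 1000 UMIs. Fewer UMIs per cell lower these shares by construction, and the cause of the change with the mitochondrial limit was not tested.

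Counts of genes past 2-fold followed the minimum level. Against the gamma-delta side there were 1514, or 471 from 50 CPM and 5093 with no minimum. For Cd8 against Cd4 cells the counts were 2855, 855 and 6383, and for Foxp3-positive against Foxp3-negative Cd4 cells 3205, 925 and 6178. Higher calls were 55.4% of the last comparison and 44.4% with no minimum, and 48.4% and 56.6% in the first, so the side with more calls changed with genes of few counts. Among cells with 5% or more mitochondrial UMIs, an alternative chosen after seeing the data, Cd8 against Cd4 cells gave 4094, of which 1882 shared their direction with the 2855 and 40 were opposite. Both ways to leave out members with RNA of other cell types were also chosen after seeing the data, and the wider one, on whole marker lists, left 128 members. No paired analysis was possible because each condition had 1 library. Depth limits the small subsets most, since 0 UMIs allow 22.8 CPM in Cd8 cells and 24.7 in Foxp3-positive Cd4 cells.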

Other observations

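The limits of these values are those of 1 pooled library. Cells of the same mice are not replicates, differences between mice are unseen, and a comparison with unoperated skin or another graft was not possible within it. Subsets of 16 and 15 cells rest on few cells, and several leading genes on 1 of them. Groups called by a UMI of Cd4, Cd8a, Cd8b1 or Foxp3 mix cells that lack the RNA with cells in which it was missed.

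Among all other kept cells, 783 with 0 Cd3 UMIs met the rest of the rule, and 47 of them (6.00%) held a UMI of Trac, Trbc1 or Trbc2. On the gamma-delta side 34 of 118 cells (28.8%) held Trac, against 79.4% of members.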
